A study of Mus musculus with 4 samples.

Results

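Non-classical monocytes of the blood were described in mice with and without intrasplenically seeded melanoma. Barcodes were kept from 200 detected genes upward and up to 10% mitochondrial transcripts, and a kept blood barcode was counted as such a cell where it held a transcript of at least 3 of the 7 genes Ace, Treml4, Adgre4, Cd300e, Eno3, Cx3cr1 and Csf1r, Ace or Treml4 among them, and none of Cd79a or Cd3e. This rule gave 366 cells, 156 from metastasis blood and 210 from sham blood, of 21626 barcodes kept in both blood libraries and 49121 in the series. The metastasis group was female C57/Bl6 mice aged 6 to 8 weeks that received 800000 cells of B16F10, a mouse melanoma line, into the spleen on day 0. The sham group, of the same strain, sex and age, received saline by the same route. In both groups the spleen was then taken out at once and 250000 B16F10 cells were placed under the skin, so the sham mice also carried a tumour and no group was free of one. Lungs and blood were collected on day 7, and there was 1 droplet library of single-cell RNA for each tissue and group. The spleen is a store of monocytes, and neither group had one.

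Blood monocytes of the mouse form a pair of classes. Classical monocytes carry Ly6C and the chemokine receptor CCR2, leave the bone marrow through CCR2 and enter inflamed tissue. Non-classical monocytes, which develop from them under the transcription factor NR4A1, lose both, keep high CX3CR1, CD43 (Spn) and LFA-1 (Itgal), and crawl along the inside of vessels, where they clear debris and lipoproteins. In lungs of tumour-bearing mice they are known for taking up tumour material. Major histocompatibility complex (MHC) class II, which displays peptides to CD4 T cells, is carried by a fraction of blood monocytes. Its genes H2-Aa, H2-Ab1 and H2-Eb1 are switched on together with the invariant chain Cd74 and the peptide exchanger H2-DM by the transactivator CIITA, which is recruited by factors bound to the X box and the Y box of their promoters.

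Class II genes had the highest median ratio between the libraries of all gene lists, and promoters of that family are shown for that reason. The table of RefSeq promoters (build GRCm38.p6) matched 6 of 9 class II genes looked for. H2-Ab1, Cd74 and Ciita had no entry. H2-DMa and H2-Oa had an entry but are not printed, and neither held both boxes as searched. The windows are the 150 bases before the start of the gene, written 5′ to 3′ on the strand of the gene. Capitals mark the Y box (searched as GATTGG) and the X box (its consensus with free bases), both searched on both strands and not overlapping in these windows. H2-Aa, H2-Eb1 and H2-DMb1 were measured in these cells and were higher in metastasis blood, and H2-DMb2, a near copy of H2-DMb1, had 1 UMI in metastasis cells and 10 in sham cells.
H2-Aa, chr17:34287824-34287973, minus strand: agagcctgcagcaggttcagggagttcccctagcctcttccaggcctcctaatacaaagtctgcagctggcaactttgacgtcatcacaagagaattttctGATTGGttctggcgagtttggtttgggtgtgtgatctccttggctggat
H2-Eb1, chr17:34305717-34305866, plus strand: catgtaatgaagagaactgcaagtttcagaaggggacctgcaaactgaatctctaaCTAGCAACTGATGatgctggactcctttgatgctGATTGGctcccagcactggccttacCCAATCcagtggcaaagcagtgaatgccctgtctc
H2-DMb1, chr17:34153041-34153190, plus strand: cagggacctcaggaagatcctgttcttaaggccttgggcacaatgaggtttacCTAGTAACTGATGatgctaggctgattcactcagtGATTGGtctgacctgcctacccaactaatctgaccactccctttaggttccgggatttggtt
H2-DMb2, chr17:34145099-34145248, plus strand: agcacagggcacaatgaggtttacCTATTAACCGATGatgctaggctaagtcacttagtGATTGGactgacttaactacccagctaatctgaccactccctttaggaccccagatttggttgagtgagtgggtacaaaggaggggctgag
The X box pattern was found in 11 of 32851 promoter windows of this length (0.0335%) and the Y box pattern in 3595 (10.9%). Both stood in 3 windows (0.00913%), those of H2-Eb1, H2-DMb1 and H2-DMb2. The X box matches of these 3 differ from each other only at the free bases of the pattern, so this count is a description. From the end of the X box to the first Y box lay 21 bases in H2-Eb1, 22 in H2-DMb1 and 22 in H2-DMb2. In H2-Aa the Y box pattern began 49 bases before the start, and the X box pattern as searched had no match in this window. Looser forms of the X box were not searched for, so this does not say that H2-Aa lacks one. A match is a match of letters and was not tested as a binding site.

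The whole blood libraries differed in make-up, which bears on every value below. Haemoglobin made up 78.6% of 112079231 unique molecular identifiers (UMIs, counts of captured transcripts) in metastasis blood and 43.7% of 116022872 in sham blood, so all levels are given as counts per 1000000 UMIs without haemoglobin (CPM). Of the kept barcodes, 2409 in metastasis blood and 469 in sham blood were neutrophils by marker UMIs, and 1732 and 8412 were B cells. The libraries shared 36 kept cell barcodes, and 34 to 52 were shared between other pairs. With 1 library per group no test across mice is possible. Intervals are 95% intervals of counting error only and say nothing of the spread between mice.

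Depth per cell was alike. The non-classical monocytes held a median of 6578.5 UMIs without haemoglobin (1471 to 24265) in metastasis blood and 6671 (1442 to 29928) in sham blood, and 1139121 and 1724516 UMIs in sum. Of the 7 rule genes all were detected in 25 metastasis cells (16%) and 59 sham cells (28.1%). At the edge of the rule, cells with exactly 3 rule genes numbered 26 in metastasis blood and 19 in sham blood, and cells with exactly 2, just outside, 93 and 23. Those just outside held neutrophil markers at a summed 86798 CPM in metastasis blood and 51043 CPM in sham blood, against 18039 and 3057 CPM just inside. Cells with all 7 rule genes held 15323 CPM of them in metastasis blood and 1713 CPM in sham blood. Classical markers summed to 6783 CPM in metastasis cells and 5517 CPM in sham cells with 3 rule genes, and to 1527 and 609 CPM in those with all 7, so cells near the edge of the rule held more of the classical transcripts.

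The label was held against markers that the rule did not use. All 17 further non-classical markers were detected in both libraries, at a summed 8335 CPM in metastasis cells and 10122 CPM in sham cells, against 3838 and 3676 CPM in the classical monocytes of the same libraries (299 and 201 cells). Nr4a1 stood at 511 CPM in metastasis cells and 685 CPM in sham cells. Spn stood at 234 and 305 CPM, and Itgal at 694 and 827 CPM in the same order. The sum did not single the cells out among all classes, as it was 6747 CPM in platelets of metastasis blood and 12413 CPM in those of sham blood, and 4519 and 5887 CPM in neutrophils. Melanoma markers gave 0 UMIs in metastasis cells and 1 in sham cells. B cell markers summed to 74.6 CPM in metastasis cells and 92.2 CPM in sham cells, with Cd79a at 0 by the rule and Ighm at 57.1 and 78.9 CPM. Markers of T cells summed to 7.02 and 80.0 CPM, of platelets to 496 and 315 CPM and of conventional dendritic cells to 11.4 and 15.7 CPM with Xcr1 at 0 in both. Markers of plasmacytoid dendritic cells summed to 114 and 106 CPM, nearly all of it Bst2 (113 and 104 CPM), with Siglech at 0 in both. Neutrophil markers were present and unequal, at 11097 CPM in metastasis cells and 3288 CPM in sham cells, with Ltf, Ngp and Camp at 0 in sham cells. NK cell markers gave 0 UMIs in metastasis cells and 173 UMIs in 8 sham cells. Tissue macrophage markers summed to 29.0 CPM in metastasis cells and 57.4 CPM in sham cells.

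**Figure D1:**
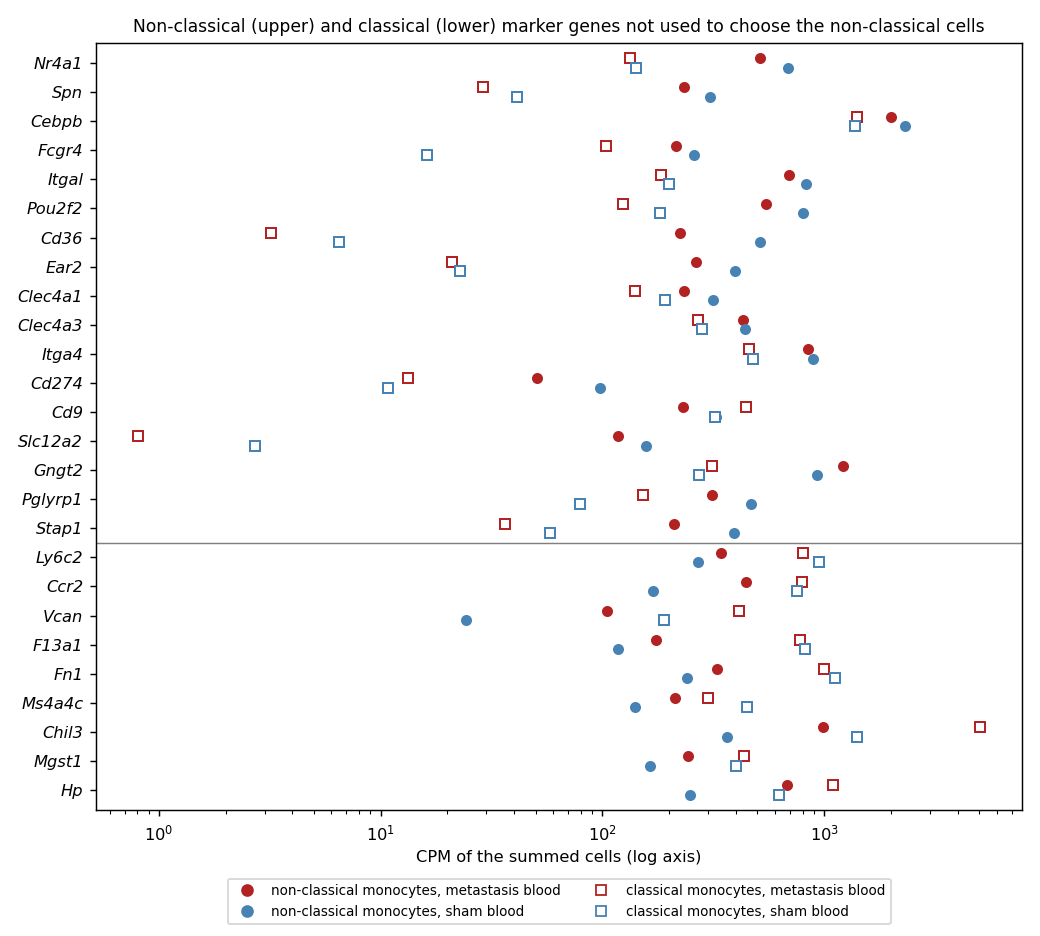
Levels of 17 non-classical and 9 classical marker genes, none of them used to choose the non-classical monocytes (some chose the classical ones), in CPM of the summed cells on a log axis, in non-classical monocytes (filled circles) and classical monocytes (open squares) of metastasis blood (red) and sham blood (blue). Cd36 stands at 224 and 513 CPM in non-classical and at 3.22 and 6.48 CPM in classical monocytes, Vcan and Ccr2 lie higher in non-classical monocytes of metastasis than of sham blood and below the classical monocytes of both, and Cd9 stands at 232 and 324 CPM in non-classical and at 445 and 324 CPM in classical monocytes.

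Non-classical monocytes made up 1.81% of kept blood barcodes in metastasis blood (156 of 8597, exact interval 1.54% to 2.12%) and 1.61% in sham blood (210 of 13029, 1.40% to 1.84%). The ratio of these shares was 1.13 (0.909 to 1.39), an interval that holds equality. The direction depended on the denominator. Among barcodes under 50% haemoglobin the shares were 2.93% and 1.68% (ratio 1.75, 1.41 to 2.16), and with neutrophils also left out 5.18% and 1.74% (ratio 2.98, 2.40 to 3.69). Among monocytes alone they were 34.3% in metastasis blood and 51.1% in sham blood (ratio 0.671, 0.542 to 0.829). Classical monocytes were 3.48% of kept barcodes in metastasis blood and 1.54% in sham blood, a ratio of 2.25 (1.88 to 2.71). In the lungs the same rule found 267 cells in the metastasis library and 101 in the sham library, 2.00% and 0.715% of kept barcodes (ratio 2.80, 2.22 to 3.55). Among lung monocytes they were 77.4% and 72.7%, a ratio of 1.07 (0.844 to 1.35) that holds equality.

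The cells were set beside the classical monocytes of the same blood, as a description of classes chosen by their own transcripts. Of 5576 genes measured in both libraries, 187 were more than 2-fold higher in non-classical monocytes of both (3.35%) and 57 lower in both (1.02%). Cd36, a scavenger receptor for oxidised lipoproteins and fatty acids, stood at 224 CPM against 3.22 CPM in classical monocytes of metastasis blood and at 513 against 6.48 CPM in sham blood. Not all lipid genes stood above classical monocytes, as Apoe did not in metastasis blood (2177 against 3922 CPM). Pparg, the nuclear receptor that drives lipid uptake genes, stood at 140 against 4.43 CPM and at 277 against 5.40 CPM, and Fabp4, a fatty acid carrier, at 78.1 against 1.21 CPM and at 130 against 1.62 CPM. The other genes with the highest mean ratios were the cotransporter Slc12a2, Setbp1, Vegfc (a vascular growth factor), Bcl2a1a (a survival factor with near-identical copies), Tgfbr3 (betaglycan, a co-receptor of TGF-beta), Dnah12 and Adgrl3. Tgfbr3 and Vegfc had 0 UMIs in classical monocytes of metastasis blood and Dnah12 had 0 in those of sham blood. Set against the floor of 3 counts over the group, their log2 ratios there were at least 5.32, 5.35 and 5.32.

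On the other side stood genes of classical monocytes. Chil3, a chitinase-like protein, was at 986 CPM against 5059 CPM in classical monocytes of metastasis blood and at 365 against 1412 CPM in sham blood. Flt3, a receptor of progenitors and dendritic cells, was at 10.5 against 49.5 CPM and at 12.2 against 69.7 CPM. The collagenase Mmp8, the metal-binding Mt1, the chemokine Ccl2, Uck2, Pkib, Mfsd7a and Gab1 were also among the 10 lowest. Of 20 listed non-classical genes outside the rule, 15 were past 2-fold in both libraries. Their median log2 ratio to classical monocytes was 1.95 in metastasis blood and 2.66 in sham blood.

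Between the groups, 5920 genes were measured in the non-classical monocytes, that is, they reached 40 UMIs in sum and a mean of 20 CPM. Of these, 102 (1.72%) were past 2-fold higher in metastasis blood, with an interval that excluded equality, and 90 (1.52%) past 2-fold lower. The median log2 ratio of all measured genes was -0.01. At 1.5-fold, the size used for gene lists, 361 (6.1%) were higher and 379 (6.4%) lower. The lists that stood farthest above that background were class II, the S100 proteins with annexins, and classical monocyte genes. Farthest below were non-classical genes and heat shock genes.

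**Figure D2:**
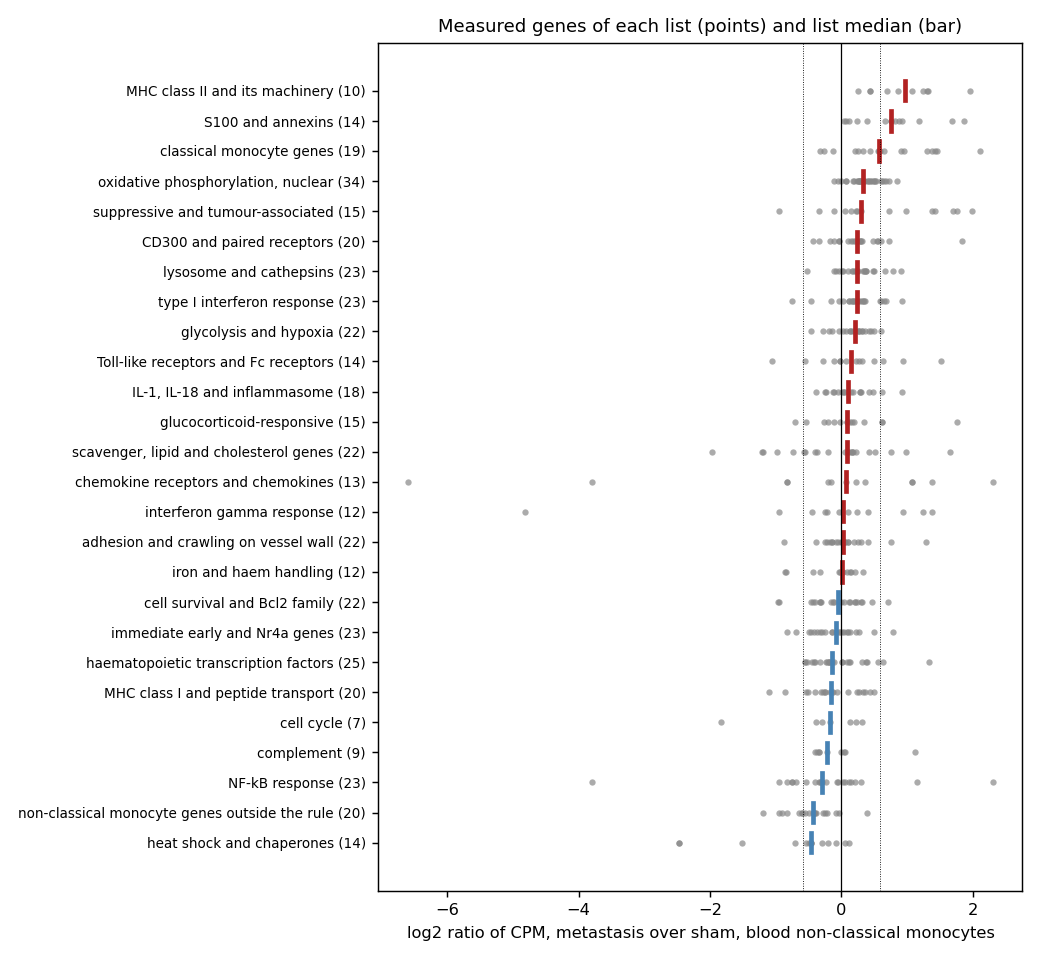
Log2 ratio of CPM, metastasis over sham, of every measured gene (points) of 26 gene lists in blood non-classical monocytes, with the list median as a bar (red above 0, blue below) and dotted lines at 1.5-fold. The number of measured genes stands in brackets, and the class II list has the highest median (0.97) and the heat shock list the lowest (-0.46).

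Class II genes were higher in non-classical monocytes of metastasis blood. Of 10 measured list members, 7 were past 1.5-fold higher, none lower, and the median log2 ratio was 0.97. H2-Ab1, the class II beta chain, had 721 CPM (672 to 772) in metastasis cells and 303 CPM (278 to 330) in sham cells. H2-Aa, the alpha chain, had 686 CPM (639 to 736) and 324 CPM (298 to 352), and H2-Eb1, the second beta chain, had 465 CPM (426 to 507) and 186 CPM (166 to 208). The invariant chain Cd74 had 2097 CPM in metastasis cells and 1153 CPM in sham cells, a log2 ratio of 0.86 (0.78 to 0.95). The largest ratio of the list was that of the transactivator Ciita, with 47.4 CPM in metastasis cells and 12.2 CPM in sham cells (log2 ratio 1.96, 1.21 to 2.76). Ifi30, the thiol reductase that unfolds antigens in the lysosome, had 603 and 243 CPM, and H2-DMb1 had 115 and 70.7 CPM. H2-DMa (190 and 140 CPM), the protease Ctss (1539 and 1284 CPM) and the costimulator Cd86 (218 and 160 CPM) stayed short of 1.5-fold. H2-Oa, which restrains H2-DM in B cells, had 3 UMIs and 5 UMIs.

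Classical monocytes of the same libraries showed the opposite order. H2-Ab1 had 197 CPM in classical monocytes of metastasis blood and 622 CPM in those of sham blood, and Cd74 had 555 and 1723 CPM. Ciita followed, at 12.48 and 37.3 CPM. Classical monocytes as chosen here also held the dendritic cell gene Cd209a, at 23.3 CPM in metastasis blood and 123 CPM in sham blood, against 0.878 and 1.16 CPM in non-classical monocytes. Its part in the class II values of classical monocytes was not tested. The list median of non-classical over classical monocytes was 1.21 in metastasis blood and -1.05 in sham blood (log2). In the lungs the same rule gave H2-Ab1 at 452 CPM in metastasis cells and 203 CPM in sham cells, and 4 of 9 measured list members were past 1.5-fold higher (4.16% of 4972 genes) and none lower (4% of genes). The median there was 0.74.

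More cells carried class II in metastasis blood. To count them, each cell was thinned to 3000 UMIs without haemoglobin, which left 146 metastasis cells and 202 sham cells, and the UMIs of H2-Aa, H2-Ab1 and H2-Eb1 were summed. No UMI was found in 88 metastasis cells and 168 sham cells, 1 or 2 in 19 and 12, and at least 3 in 39 and 22. Cells with at least 3 thus made up 26.7% (19.7% to 34.7%) in metastasis blood and 10.9% (6.95% to 16%) in sham blood, a ratio of 2.45 (1.42 to 4.34). Within them the median sum was 14 UMIs in metastasis cells and 11.5 in sham cells. Among classical monocytes such cells were 7.56% in metastasis blood and 16.1% in sham blood, a ratio of 0.468 (0.258 to 0.835). Among T cells, which lack class II in the mouse, they were 0.454% (2 of 441) and 0.727% (17 of 2338). At a common 1500 UMIs such cells were 31 of 155 in metastasis blood and 14 of 209 in sham blood (6.70%), and 11.7% in metastasis lungs and 4.21% in sham lungs. The limit of 3 UMIs was set after the values were seen.

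**Figure D3:**
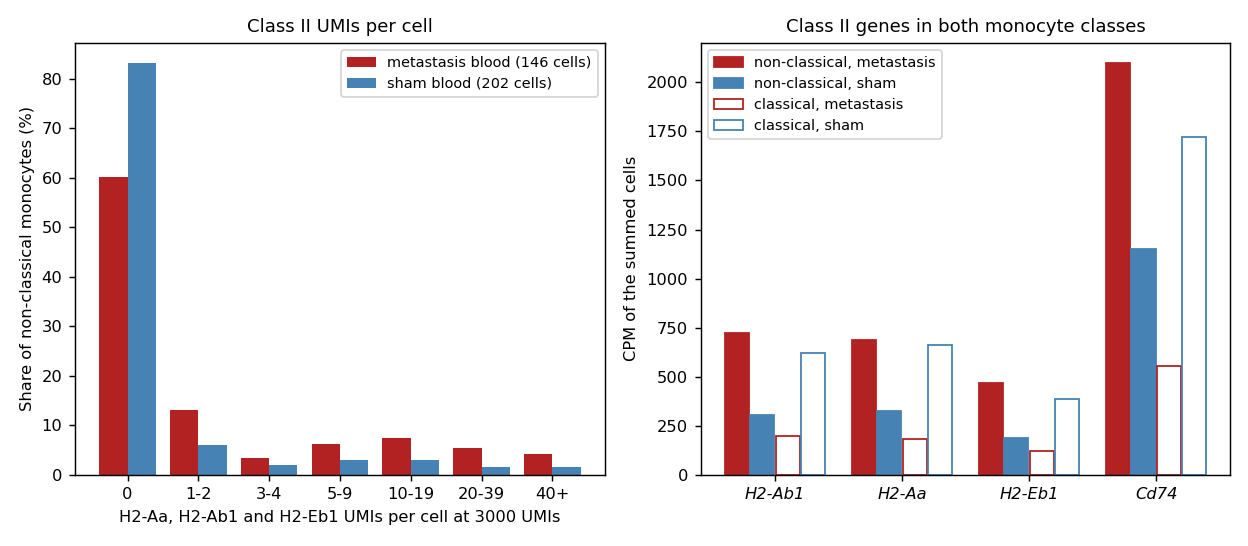
Left, share of blood non-classical monocytes (146 metastasis cells in red, 202 sham cells in blue) by their summed UMIs of H2-Aa, H2-Ab1 and H2-Eb1 after thinning to 3000 UMIs. Right, CPM of 4 class II genes in the summed non-classical (filled) and classical (open) monocytes of both libraries, where H2-Ab1 is at 721 and 303 CPM in non-classical and at 197 and 622 CPM in classical monocytes.

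The cells with class II were set beside those without, in each library on its own. As the split was made on class II transcripts, the values are a description. Of 3842 genes measured in both libraries, 11 were past 2-fold higher in the class II cells of both (0.286%) and 15 lower (0.39%), and 3 of the 11 were the genes of the split. The other 8 were Cd74, H2-DMb1, H2-DMa, Aif1, Tmem176a, Tmem176b, Batf3 and Plcl1. Cd74 had 6291 CPM in class II cells against 380 CPM in cells without in metastasis blood, and 5861 against 286 CPM in sham blood. Aif1, an actin-binding protein of monocytes and macrophages, had 299 against 64.2 CPM and 326 against 50.02 CPM. Batf3, a transcription factor best known for the development of cross-presenting dendritic cells, had 86.7 against 32.1 CPM and 137 against 14.0 CPM. Ciita had 141 against 13.8 CPM and 64.4 against 2.94 CPM. The dendritic cell gene Cd209a was at 0 CPM against 1.53 CPM in metastasis blood and at 4.02 against 0.736 CPM in sham blood, and the B cell markers summed to 70.7 against 70.3 CPM and to 68.4 against 94.1 CPM. Tissue macrophage markers summed to 77.1 against 13.8 CPM in metastasis blood and to 386 against 2.21 CPM in sham blood, and 1 sham cell gave 81.6% of the UMIs of the macrophage gene C1qb. Their part in the class II values was not tested. A doublet score of 0.3 or more was seen in 4 of 39 class II cells and 2 of 88 cells without in metastasis blood. In sham blood it was seen in 4 of 22 and 10 of 168. The part of doublets in the split was not tested.

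Of the 15 genes lower in class II cells, Pglyrp1 was on the non-classical list and Cd300e was a rule gene. Cd300e had 32.1 CPM in class II cells against 108 CPM without in metastasis blood, and 84.5 against 209 CPM in sham blood. Pecam1, the adhesion molecule CD31, had 48.2 against 116 CPM and 64.4 against 189 CPM. Tgfbr3 had 12.8 against 65.7 CPM and 76.4 against 175 CPM. Other non-classical markers differed less, Nr4a1 with 459 against 503 CPM and 555 against 700 CPM, and Spn with 193 against 235 CPM and 237 against 309 CPM. Cd36, which was not among the 15, was detected in 5 of 39 class II cells and 37 of 88 cells without in metastasis blood, and in 7 of 22 and 110 of 168 in sham blood. Classical genes were not of one direction. Ccr2 was detected in 26 of 39 and 38 of 88 cells of metastasis blood and in 13 of 22 and 30 of 168 of sham blood, while Chil3 was detected in 15 of 39 and 50 of 88, and in 6 of 22 and 34 of 168. Ly6c2 was detected in 11 of 39 and 29 of 88, and in 11 of 22 and 31 of 168. Classical markers summed to 2547 CPM in class II cells against 4346 CPM without in metastasis blood, and to 2128 against 1734 CPM in sham blood. The rest were Fpr2, Smpdl3b, Pglyrp1, Setbp1, Kif13b, Maml2, Dusp16, Spata13, Abcc4, C3, Hivep2 and Ttc7b.

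Genes of classical monocytes were higher in non-classical monocytes of metastasis blood. Of 19 measured list members 9 were past 1.5-fold higher and none lower, with a median log2 ratio of 0.57. Ccr2 had 442 CPM in metastasis cells and 170 CPM in sham cells (log2 ratio 1.38, 1.17 to 1.59). Vcan, a matrix proteoglycan, had 105 and 24.4 CPM (2.11, 1.59 to 2.66), and Plac8 had 3952 and 1607 CPM. Chil3 had 986 and 365 CPM (1.43, 1.29 to 1.58), and Hp, haptoglobin, which binds free haemoglobin, had 680 and 248.8 CPM (1.45, 1.28 to 1.62). Ly6c2, the gene of the Ly6C antigen, which has a near copy in Ly6c1, differed less, with 341 and 271 CPM (0.33, 0.14 to 0.53). F13a1 (174 and 117 CPM) and Fn1 (327 and 241 CPM) stayed short of 1.5-fold. In the lungs Ly6c2 was lower in metastasis cells, with 169 CPM against 397 CPM in sham cells.

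Some of these genes were seen in more cells at equal depth. At 3000 UMIs per cell Ccr2 was found in 49.3% of metastasis cells (41.0% to 57.7%) and 22.8% of sham cells (17.2% to 29.2%), and Chil3 in 51.4% (43.0% to 59.7%) and 21.8% (16.3% to 28.1%). Vcan was found in 18.5% (12.6% to 25.8%) and 2.48% (0.808% to 5.68%). In B cells, which should lack them, Ccr2 was found in 0.920% and 0.482%, Chil3 in 3.91% and 0.465% and Vcan in 0.230% and 0.216%. These B cells were the 435 of 1732 in metastasis blood and 6019 of 8412 in sham blood that reached 3000 UMIs. All B cells had median depths of 2439 and 3524 UMIs before thinning, and Chil3 was found in 1.73% and 0.428% of them without thinning. Intervals overlapped for Ly6c2, found in 31.5% of metastasis cells (24.1% to 39.7%) and 22.3% of sham cells (16.7% to 28.6%), and for F13a1, in 20.5% (14.3% to 28.0%) and 12.9% (8.58% to 18.3%). Without thinning, Ccr2 was found in 57.1% of metastasis and 35.2% of sham cells. Ly6c2 or Ccr2 was found in 56.2% and 33.2% of cells at equal depth.

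Cells without any UMI of Ly6c2 or Ccr2 numbered 59 in metastasis blood and 125 in sham blood. Their median depth was 4336 and 5192 UMIs without haemoglobin, against 7441 and 8318 in the cells with such a UMI. Vcan was at 9.05 CPM in those of metastasis blood and at 0 in those of sham blood. H2-Aa, H2-Ab1, H2-Eb1 and Cd74 summed to 2182 CPM there in metastasis blood and 761 CPM in sham blood, and Chil3 was at 383 and 57.2 CPM. The further non-classical markers summed to 11782 CPM and 12156 CPM in these cells. Without the cells that carried Ly6c2 or Ccr2 the median of the classical list was 0.18, with 4 members higher and 1 lower. Both genes are on that list, so this describes cells chosen by its own members.

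**Figure D4:**
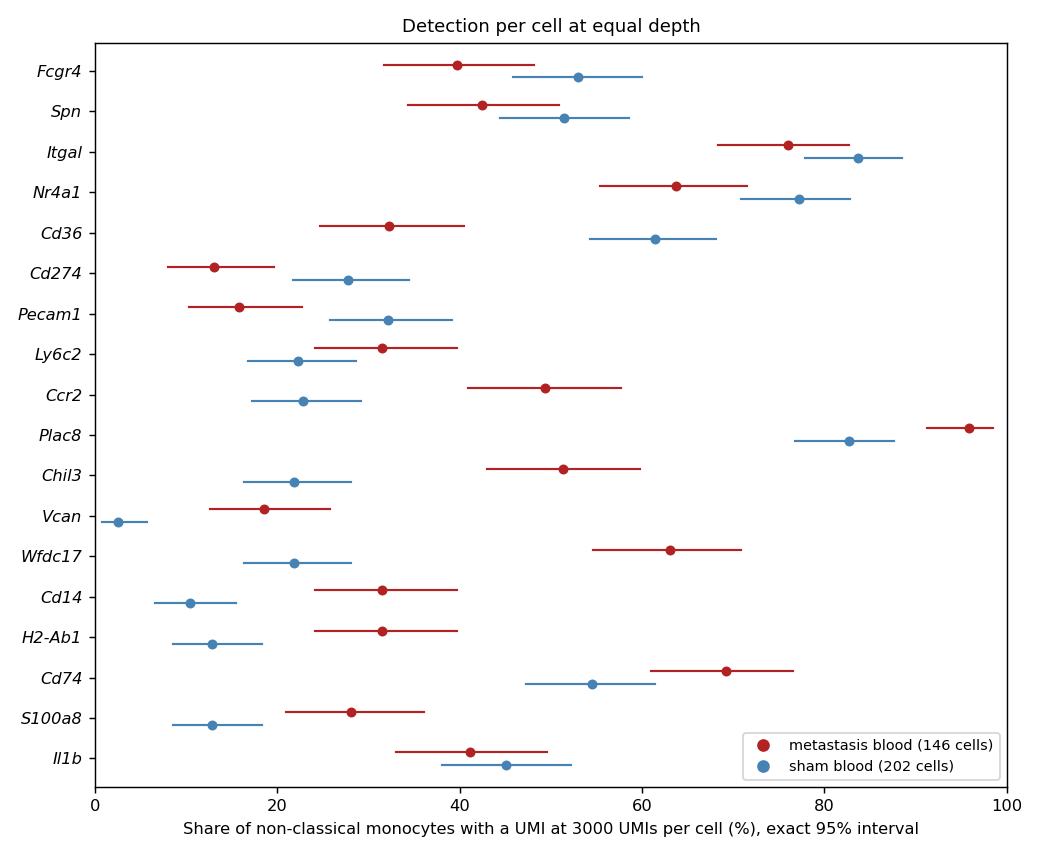
Share of blood non-classical monocytes with at least 1 UMI of each gene after thinning to 3000 UMIs per cell, with exact 95% intervals of counting error, in metastasis blood (red, 146 cells) and sham blood (blue, 202 cells). Ccr2, Chil3, Vcan, Wfdc17, Cd14, H2-Ab1 and S100a8 lie higher in metastasis blood, Cd36, Cd274 and Pecam1 lower, and Il1b overlaps (41.1% and 45.0%).

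Genes of the non-classical state outside the rule were lower. Of 20 measured list members 7 were past 1.5-fold lower and none higher, with a median log2 ratio of -0.43, and 19 of the 20 ratios were below 0. Cd36 had 224 CPM in metastasis cells and 513 CPM in sham cells (log2 ratio -1.20, -1.40 to -0.99), and was detected at equal depth in 32.2% (24.7% to 40.4%) and 61.4% (54.3% to 68.1%) of cells. Cd274, the checkpoint ligand PD-L1, had 50.9 and 98.0 CPM (-0.94, -1.40 to -0.51). Stap1, an adaptor protein, had 210 and 390 CPM (-0.90, -1.11 to -0.68). The others past 1.5-fold were Ear2 (a gene with close copies), Pglyrp1, Hes1 and Dusp5. Nr4a1 (511 and 685 CPM; -0.42, -0.57 to -0.28), Spn (-0.39, -0.60 to -0.17), Fcgr4, the Fc receptor of these cells (214 and 259 CPM; -0.27, -0.50 to -0.04), and Itgal (-0.25, -0.38 to -0.13) stayed short of 1.5-fold. Without the cells carrying Ly6c2 or Ccr2, Spn was at 0.13 and Itgal at 0.17. Gngt2, a G protein subunit, was the gene with a ratio above 0, with 1212 CPM in metastasis cells and 927 CPM in sham cells. Of this list, 2 were higher and 2 lower in the lungs, where the median was -0.01.

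The rule genes are given as a description. Cd300e had 90.4 CPM in metastasis cells and 192 CPM in sham cells, Adgre4 had 627 and 851 CPM, Csf1r had 546 and 698 CPM and Ace had 370 and 430 CPM. Cx3cr1 had 240 and 314 CPM and Treml4 had 224 and 281 CPM. Eno3 was the gene that was higher in metastasis cells, with 162 and 138 CPM. Without the cells carrying Ly6c2 or Ccr2 the median of the non-classical list was -0.14, with 1 member lower.

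S100 proteins and annexins were higher, 9 of 14 measured members past 1.5-fold and none lower, with a median of 0.76. S100a8 had 3791 CPM in metastasis cells and 1038 CPM in sham cells, and S100a9 had 5323 and 1650 CPM. Both are calprotectin subunits that fill neutrophils. They are themselves among the neutrophil markers and make up most of the marker sum of 11097 and 3288 CPM, so that sum is not a separate measure. S100a8 was detected at equal depth in 28.1% of metastasis and 12.9% of sham non-classical monocytes, and in 52 of 435 and 95 of 6019 B cells (1.58% in sham blood), which should lack it. S100a4 (2532 and 1376 CPM), S100a6 (2317 and 1215 CPM), Anxa1 (436 and 259 CPM) and Anxa2 (662 and 416 CPM) were higher as well. Without cells holding 5 or more UMIs of S100a8 and S100a9, 4 list members were past 1.5-fold and the median was 0.55. The part of neutrophil transcripts in the other differences was not tested beyond leaving these cells out.

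Among genes tied to suppressive and tumour-associated myeloid cells, 7 of 15 were past 1.5-fold higher and 1 lower (median 0.31). Wfdc17, a small secreted protein, had 896 CPM in metastasis cells and 227 CPM in sham cells (log2 ratio 1.98, 1.81 to 2.15), and was detected at equal depth in 63.0% and 21.8% of cells, with 12.4% and 4.77% in B cells. Trem2, a lipid-sensing receptor, had 88.7 and 26.1 CPM (1.76, 1.24 to 2.31). Lgals3, galectin-3, had 1475 and 743 CPM. The granule enzymes Mmp8 (72.0 and 22 CPM) and Mmp9 (115 and 44.1 CPM), which neutrophils also make, were higher as well, as were Arg2 and Chil3. Cd274 was the member that was lower.

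The other genes with the highest ratios that could be named were Flot1, a membrane scaffold (57.9 CPM in metastasis cells and 16.8 CPM in sham cells), Cd93, a C-type lectin-like receptor (69.3 and 22 CPM), Vill (36.9 and 12.2 CPM) and F10, coagulation factor X (137 and 45.2 CPM). The lipopolysaccharide co-receptor Cd14 had 142 and 49.9 CPM, and Ms4a8a had 60.6 and 22 CPM. Cd14 was detected at equal depth in 31.5% of metastasis and 10.4% of sham cells, and in 3.22% and 0.266% of B cells. For each of the 12 highest genes, no single cell gave more than 12.6% of the UMIs in metastasis blood.

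**Figure D5:**
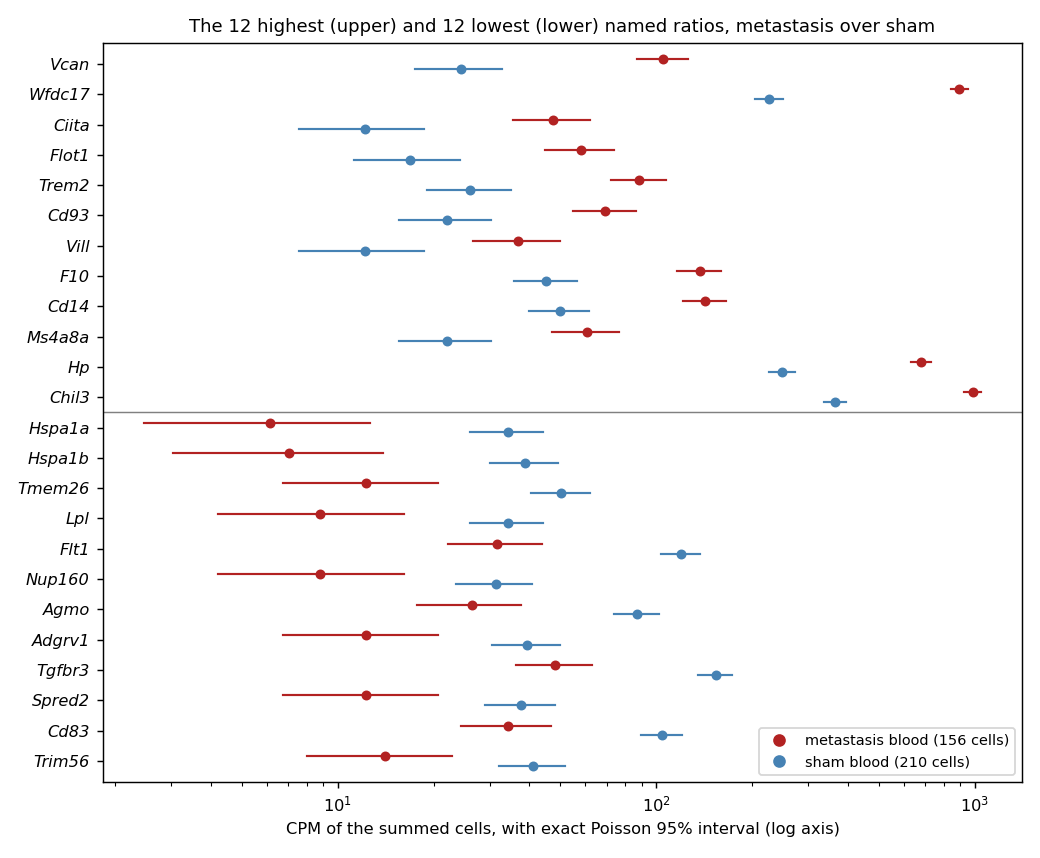
Levels of the 12 named genes with the highest and the 12 with the lowest ratios between blood libraries, in CPM of the summed non-classical monocytes with exact Poisson 95% intervals on a log axis, metastasis (red, 156 cells) above sham (blue, 210 cells). Vcan lies at 105 and 24.4 CPM and Hspa1a at 6.15 and 34.2 CPM. The intervals of the groups do not overlap for any of the 24 genes, which were chosen among genes whose ratio interval excluded equality.

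The lowest ratios were those of the heat shock protein 70 genes, chaperones switched on by stress, Hspa1a (6.15 CPM in metastasis cells and 34.2 CPM in sham cells; log2 ratio -2.48, -3.85 to -1.34) and Hspa1b (7.02 and 38.9 CPM; -2.47, -3.74 to -1.41). They are near-identical copies between which reads can be split. With Hsph1 (18.4 and 52.8 CPM) and the co-chaperone Dnaja1 (177 and 288 CPM) they were 4 of 14 measured heat shock genes past 1.5-fold lower, with none higher and a median of -0.46. In the lungs none of 12 was past 1.5-fold either way and the median was 0.09.

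The other low ratios were of genes of varied roles. Flt1, a receptor of vascular endothelial growth factor, had 31.6 CPM in metastasis cells and 119 CPM in sham cells (-1.92, -2.47 to -1.40). Endothelial markers summed to 96.6 CPM in metastasis cells and 174 CPM in sham cells, nearly all of it Pecam1 (94.8 and 173 CPM), with Kdr at 2 UMIs and 1 UMI and Cdh5 and Cldn5 at 0 in both, and their part in the Flt1 values was not tested. Tgfbr3 had 48.3 and 154 CPM (-1.67, -2.12 to -1.25), and Cd83, a surface protein of activated antigen-presenting cells, had 34.2 and 104 CPM (-1.61, -2.15 to -1.10). Lpl, lipoprotein lipase, had 8.78 and 34.2 CPM, in 8 metastasis and 20 sham cells, and Agmo, which cleaves ether lipids, had 26.3 and 87.0 CPM. Tmem26 had 12.3 and 50.4 CPM, and the adhesion receptor Adgrv1 12.3 and 39.4 CPM. The rest were the nuclear pore protein gene Nup160 (8.78 and 31.3 CPM), the signalling inhibitor Spred2 (12.3 and 37.7 CPM) and the ubiquitin ligase Trim56 (14.1 and 41.2 CPM). Without the cells carrying Ly6c2 or Ccr2 the log2 ratios of Flt1 and Cd83 were -0.72 and -0.85.

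Scavenger, lipid and cholesterol genes were split, 2 of 22 past 1.5-fold higher and 5 lower, with a median of 0.08. Apoe, which carries lipids out of cells, had 2177 CPM in metastasis cells and 5009 CPM in sham cells (-1.20, -1.27 to -1.14). Pparg had 140 and 277 CPM, and Fabp4 78.1 and 130 CPM, and with Cd36 and Lpl they made up the 5. Fabp5, the other fatty acid carrier, went the other way with 96.6 and 30.7 CPM (1.65, 1.17 to 2.15). Apoe in classical monocytes ran opposite, with 3922 CPM in metastasis blood and 1367 CPM in sham blood. In the lungs Apoe had 2137 CPM in metastasis cells and 4620 CPM in sham cells.

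Of 23 measured NF-kB response genes, 6 were past 1.5-fold lower and 2 higher (median -0.29). The feedback inhibitors Tnfaip3 (64.1 CPM in metastasis cells and 108 CPM in sham cells) and Nfkbie (23.7 and 38.3 CPM), the adaptor Traf1 (24.6 and 41.2 CPM) and Bcl2a1d (95.7 and 186 CPM) were lower. The neutrophil attractant Cxcl2 was higher, with 225 and 45.2 CPM, in 33 of 156 and 20 of 210 cells. At equal depth Cxcl2 was detected in 17.1% of metastasis and 5.94% of sham cells, and in 5.98% and 0.615% of B cells. The chemokines Ccl3 and Ccl4 were also lower, but in sham cells 1 cell gave 32.8% of the 180 Ccl3 UMIs and 1 cell 38.1% of the 189 Ccl4 UMIs. Il1b, the inflammatory cytokine, had 516 CPM in metastasis cells and 420 CPM in sham cells (log2 ratio 0.30, 0.14 to 0.46; -0.19 without cells with platelet UMIs), and its decoy receptor Il1r2 had 226 and 147 CPM (0.63, 0.37 to 0.88). Its antagonist Il1rn had 4 UMIs and 15 UMIs.

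Nuclear genes of oxidative phosphorylation leaned one way by little. Of 34 measured genes 32 had a ratio above 0 and 6 were past 1.5-fold higher, none lower, with a median of 0.34. Sdhd of complex II had 74.6 CPM in metastasis cells and 45.2 CPM in sham cells, and Atp5g1 of the ATP synthase had 210 and 131 CPM. In the lungs none of the 34 was past 1.5-fold and the median was 0.19. Type I interferon genes had 5 of 23 higher, Slfn5 among them (147 and 77.1 CPM), and 1 lower, Rsad2 (median 0.24). Isg15 had 97.4 and 78.3 CPM, but 1 metastasis cell gave 35.1% of its UMIs, and at equal depth it was detected in 9.59% of metastasis cells and 11.9% of sham cells. MHC class I genes had none of 20 past 1.5-fold higher and 2 lower, the near copies H2-Q6 and H2-Q7, with a median of -0.16, and H2-Q7 was at 0.07 without the cells carrying Ly6c2 or Ccr2.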

How the data were processed

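Droplet RNA libraries of blood, with those of the lungs beside them, were analysed. The authors deposited raw counts of UMIs, not normalised, over 32285 genes for every barcode, and no barcode had under 500 UMIs. Named in the submitters' processing notes, with no role, are build GRCm38.p6, R 4.3.1, Seurat 4.3.0.1 and Cell Ranger 7.0.0. Per the labels' protocols blood cells came from density centrifugation, while the design text names enrichment kits for CD45. How many mice a library holds was not given in the labels used.

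Within each library, the counts of all cells of a class were added up and scaled to 1000000 UMIs without haemoglobin (Python 3.11.15, numpy 2.4.6, pandas 2.3.3). Log2 ratios carry exact conditional binomial intervals, levels exact Poisson intervals and shares Clopper-Pearson intervals (scipy 1.17.1), all at 95% and for counting error only. A gene with 0 UMIs in a group was set to a floor of 3 counts over that group. Doublets were kept and scored with Scrublet (scanpy 1.11.5, expected rate 10%), whose own threshold marked 0.477% of metastasis blood and 2.46% of sham blood, so a score of 0.3 was used as an alternative. Classical monocytes were barcodes outside the rule with at least 3 of Ccr2, Vcan, F13a1, Ly6c2, Csf1r, Ms4a4c and Fn1, Ccr2 or F13a1 among them, and no Cd79a, Cd3e or Siglech. Comparisons of summed counts were checked on simulated Poisson counts, the model that the intervals assume. That check left out the uneven spread of transcripts over cells, so it does not bear on it.

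The rule, lists and alternatives were chosen with earlier results of these data known. Named genes were the 12 highest and 12 lowest ratios past 2-fold with a UMI in at least 5 cells and 5% of cells and a CPM of at least 0.25 of that of any other class of the library. Rule, ribosomal, mitochondrial, haemoglobin and receptor segment genes and unnamed models were left out. Further genes were list members with the largest ratios, the 10 highest and 10 lowest against classical monocytes, and a fixed set. Genes named beyond this rule (members of the class II, S100, NF-kB and lipid lists, and the class II split) were chosen after their values were seen. Alternatives were stricter cells, 2 or 4 rule genes, thinning before the rule, leaving out cells with signs of other cells, other scales and other count minimums. Some genes that the rule names are not reported here.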

Additional observations from a re-analysis of the deposited data

Results flagged for a closer look

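The following genes went opposite ways between groups in blood and lung non-classical monocytes, each with an interval that excluded equality in both tissues. The difference between tissues was not tested. Cd93 had a log2 ratio, metastasis over sham, of 1.65 in blood and -0.87 in lungs. Maf, a transcription factor of macrophages, had 0.63 and -1.11, and 1 cell gave 27.1% of its UMIs in sham blood. Cd274 had -0.94 in blood and 0.85 in lungs, with 50.9 CPM in metastasis cells and 98.0 CPM in sham cells of blood and 181 and 100 CPM in lungs. The interferon-induced Rsad2 had -0.76 in blood and 2.23 in lungs, and 1 cell gave 26.1% of its UMIs in sham blood. Its blood ratio ranged from -0.81 to 1.23 across the alternatives, so it did not keep its direction. The chemokine Ccl4 had -3.79 and 1.86, and 1 cell gave 38.1% of its UMIs in sham blood and 1 cell 5 of 9 UMIs in metastasis blood. Ncoa4, which takes ferritin to lysosomes, had -0.86 and 1.09.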

How the results depend on the processing

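No paired analysis was possible because each group had 1 library. The ratio of shares of kept barcodes was 1.13, and it was 1.46 with at least 400 genes and at most 5% mitochondrial UMIs, 1.62 with 2 rule genes, 2.40 with the rule applied after thinning (98 metastasis and 177 sham cells), 0.715 without cells with Ly6c2 or Ccr2, and by denominator 1.75, 2.98 and 0.671. The count of genes past 2-fold higher (102) was 198 with 2 rule genes, 59 with a minimum of 100 UMIs and 235 with 10, and that of genes lower (90) was 149 after thinning, 143 without cells with platelet UMIs, 166 without all 4 signs of other cells (added after the data were seen), 48 with 100 UMIs and 347 with 10. Against classical monocytes the 57 genes lower became 35 with 2 rule genes, 90 with 4, 107 without cells with neutrophil UMIs and 92 by the mean of cells. The causes of these moves were not tested, save that the count minimums change how many genes are tested. The calls themselves moved more than their counts: of the 102 and 90 genes, 55 and 60 remained past 2-fold without cells with neutrophil UMIs and 30 and 31 without cells with Ly6c2 or Ccr2. Of the 24 named highest and lowest genes, 20 kept their call under the alternatives in which they still had enough UMIs to be measured, which were all 15 for 10 genes and as few as 5 for 1 gene, and the others were Cd93 (0.75 after thinning), Flt1 (-0.72) and Cd83 (-0.85) without cells with Ly6c2 or Ccr2, and Trim56 (-1.0 with 2 rule genes). Cd36 fell short of 2-fold after thinning, by the mean of cells and without cells with Ly6c2 or Ccr2 (-0.65). Genes whose interval excluded equality turned direction in these cases: without cells with Ly6c2 or Ccr2 Spn (0.13), Itgal (0.17), H2-Q7 (0.075) and Rsad2 (1.23), without cells with platelet UMIs Il1b (-0.19), Rsad2 (0.37) and Il1rap (-0.40), without cells with neutrophil UMIs Il1b (-0.021) and Il1rap (-1.13), without all 4 signs Il1b (-0.30) and Il1rap (-0.92), after thinning Rsad2 (0.17) and with 2 rule genes Rsad2 (0.081) and Csf1 (0.10). The class II median ranged from 0.53 to 1.39 and the non-classical median from -0.72 to -0.14. Depth limits genes under 40 UMIs, which were not compared.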

Other observations

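Several genes of lists not described above rested on 1 cell of the sham library. All 85 UMIs of the chemokine Cxcl9 in sham cells came from 1 cell, and metastasis cells had 2 UMIs. Of 147 Ccl5 UMIs in sham cells 55.1% came from 1 cell, and metastasis cells had 1 UMI. Of 49 UMIs of the complement gene C1qb in sham cells 81.6% came from 1 cell.

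Other groups had measured members past 1.5-fold without a common direction. Pecam1 (94.8 CPM in metastasis cells and 173 CPM in sham cells) was lower among 22 vessel wall and adhesion genes, and the integrin subunit Itgb7 (144 and 85.2 CPM) and the junction protein F11r were higher. Among receptors, Cd300lf had 85.1 CPM in metastasis cells and 23.8 CPM in sham cells, while the neonatal Fc receptor Fcgrt had 32.5 and 67.3 CPM and Fcgr1 had 62.3 and 32.5 CPM. Immediate early genes had 1 of 23 past 1.5-fold higher, Fos (1426 and 830 CPM), and 1 lower, Dusp5, and the cell cycle gene Ccnd2 had 10 UMIs in metastasis cells and 54 in sham cells.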
